A study of Mus musculus with 2 samples.

Results

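The collagen gene family was described in sorted mouse bone marrow stromal cells. Members were the rows of the deposited expression table whose symbol is Col, a number, a, and a number and nothing else. The rule found 43 genes among 35798 rows, and no row naming several genes held such a symbol. Collagen XXVI, listed under its older symbol Emid2, falls outside the rule, and its row had 2.92 FPKM in JAK2 V617F and 4.07 FPKM in control cells. FPKM counts fragments per kilobase of transcript, scaled to the mapped fragments of the library, so levels of genes of different length can be set side by side.

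The JAK2 V617F library came from adult C57BL/6 mice of the genotype Nes-gfp;Mx1-cre;JAK2-V617F, and the control library from adult C57BL/6 Nes-gfp littermates. Nes-gfp marks cells in which nestin regulatory sequence is active. Mx1-cre is a recombinase under an interferon-responsive promoter, and JAK2-V617F is the activating kinase mutation of myeloproliferative neoplasms. Both genotypes received pIpC, the RNA analogue that induces Mx1-cre, and cells negative for CD45, CD31 and Ter119 and positive for GFP were sorted 6 weeks later. The control genotype lists neither Mx1-cre nor the mutation, so their effects cannot be told apart. Cells of 3 animals were pooled for each library, with a sole library per genotype. Hence no value has a replicate error, no test between genotypes was possible, and each difference is between 2 pools of cells, named here as JAK2 V617F and control cells.

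Collagens are proteins of 3 chains wound into a triple helix, which needs a glycine at regular steps along each chain. Fibrillar collagens form the fibres of bone, cartilage and tendon, and collagen I is the main protein of bone matrix. Collagen IV builds the mesh of basement membranes. FACITs (fibril-associated collagens with interrupted triple helices) sit on the surface of fibrils, network-forming types build beaded filaments or hexagonal lattices, and transmembrane types are anchored in the cell surface. In cartilage, collagens II, IX and XI share a fibril, and collagen X is made by hypertrophic chondrocytes.

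The helix can be read in the genes, and its length sets the fibrillar class apart. The exons printed here belong to the abundant pair of bone collagen chains and to the FACIT genes that were lower by the widest margins. Each is the gene's earliest 54-base coding exon in which the glycine codon GGN recurs at intervals of 3 codons throughout, from GENCODE vM21 (GRCm38), and the capitals mark those glycine codons.
Col1a1 (chr11:94939904-94939957, plus strand): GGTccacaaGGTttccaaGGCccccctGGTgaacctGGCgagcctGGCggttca
Col1a2 (chr6:4515481-4515534, plus strand): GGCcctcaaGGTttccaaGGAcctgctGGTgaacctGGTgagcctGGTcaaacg
Col22a1 (chr15:71952523-71952576, minus strand): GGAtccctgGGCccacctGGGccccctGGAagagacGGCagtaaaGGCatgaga
Col14a1 (chr15:55467960-55468013, plus strand): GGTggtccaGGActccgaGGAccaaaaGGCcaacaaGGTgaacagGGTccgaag

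All 43 genes were found in GENCODE vM21, and the longest coding transcript of each was read. The longest uninterrupted run of GGN codons at this spacing had a median of 338 codons in the 11 fibrillar genes, with a range of 216 to 344. The shortest fibrillar runs were in Col24a1 (216) and Col27a1 (217), the minor fibrillar collagens. The run was 338 codons in Col1a1, 113 in Col22a1 and 32 in Col14a1. Medians were 57 codons in FACIT genes, 42 in basement membrane genes, 60 in network genes and 43.5 in transmembrane genes. Exons of 54 bases made up 47.0% of fibrillar coding exons (305 of 649), 25.2% of FACIT coding exons (109 of 432) and 4.44% of basement membrane coding exons (22 of 495).

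**Figure D1:**
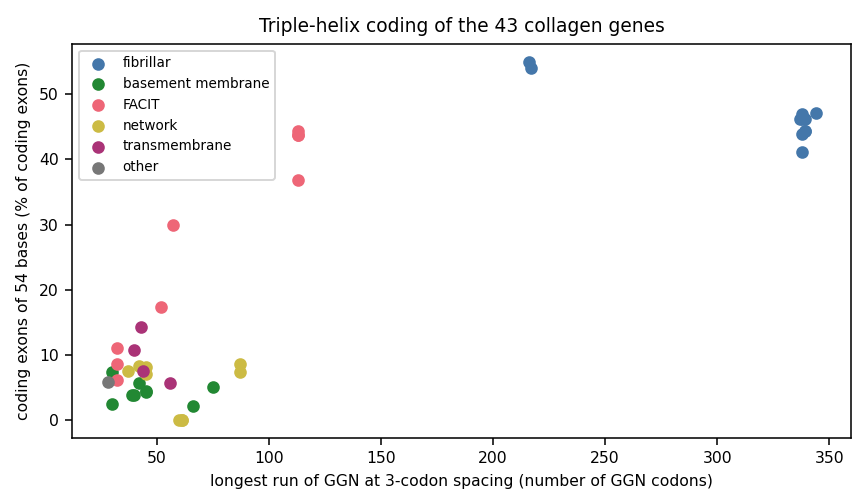
Longest run of GGN codons at 3-codon spacing (x axis, number of codons) against coding exons of 54 bases (y axis, % of coding exons) for each of the 43 genes, coloured by class. The 11 fibrillar genes stand at 216 codons or more, and all other genes at 113 or fewer.

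Promoter windows of 250 bases before the annotated start were available from RefSeq (GRCm38.p6) for 35 of the 43 genes, in 38 entries. Col1a1 and Col2a1 had no entry, so the shares below leave them out and Col1a2 alone stands for collagen I. Col9a1, Col6a2 and Col18a1 had more than 1 entry, and each entry was counted. The windows of Col1a2 and Col10a1 are printed because the collagen I pair made up most of the difference in summed level, and Col10a1 had the highest log2 ratio of the measured genes. Capitals mark motifs, which were searched on both strands. The TATA box was spelled TATAAA and the CCAAT box by its 5 letters. The GC box was spelled GGGCGG. For transcription factors of bone and cartilage, the RUNX motif was spelled TGTGGT. The SOX motif was spelled ACAAAG, and no motif contains another.
Col1a2 (chr6:4505368-4505617, plus strand): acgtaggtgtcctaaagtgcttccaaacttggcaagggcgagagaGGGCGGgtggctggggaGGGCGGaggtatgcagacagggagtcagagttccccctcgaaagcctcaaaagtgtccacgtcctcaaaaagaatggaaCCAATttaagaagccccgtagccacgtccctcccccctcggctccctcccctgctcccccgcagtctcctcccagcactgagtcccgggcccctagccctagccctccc
Col10a1 (chr10:34389731-34389980, plus strand): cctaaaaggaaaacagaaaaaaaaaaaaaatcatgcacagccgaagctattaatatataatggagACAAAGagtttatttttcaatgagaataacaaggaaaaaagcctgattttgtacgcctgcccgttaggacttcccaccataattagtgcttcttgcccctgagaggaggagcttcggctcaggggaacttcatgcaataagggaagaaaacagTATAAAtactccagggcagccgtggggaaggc

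The Col1a2 window held GC boxes that began 205 and 188 bases before the start and a CCAAT box at 109 bases. The Col10a1 window held a SOX motif at 185 bases and a TATA box at 32 bases. Among the 38 collagen windows the GC box was found in 57.9%, against 32.7% of all 32851 windows, and the CCAAT box in 34.2%, against 33.8%. Among collagen windows the TATA box was found in 13.2% (12.4% of all windows), the SOX motif in 10.5% (16.5%) and the RUNX motif in 7.89% (14.0%). These matches describe letters, not bound sites.

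The table sums to 817478 FPKM in JAK2 V617F and 924587 FPKM in control cells. From the steps of low values, the depth was estimated at about 6280000 fragments for JAK2 V617F and 5220000 for control cells. Stromal markers were present: all 8 on the list (Lepr, Pdgfra, Pdgfrb, Cxcl12, Ebf1, Ebf3, Vcam1 and Kitl) passed 1 FPKM, none differed by 2-fold, and their sum was 979 FPKM in JAK2 V617F and 1214 FPKM in control cells. Markers of other cell types, both those of the negative gates (leukocyte, erythroid and endothelial) and others, were also detected. Leukocyte markers (5 of 5 measured) summed to 209 FPKM in JAK2 V617F and 116 FPKM in control cells, and erythroid markers (5 of 5) to 941 FPKM in JAK2 V617F and 1979 FPKM in control cells. Endothelial markers (6 of 6) summed to 36.2 FPKM in JAK2 V617F and 31.9 FPKM in control cells, and Schwann markers (4 of 5) to 118 FPKM in JAK2 V617F and 47.1 FPKM in control cells. Macrophage markers (3 of 5), with C1qa listed at 0 in both libraries, summed to 21.4 FPKM in JAK2 V617F and 4.36 FPKM in control cells. Megakaryocyte markers (3 of 3) summed to 39.0 FPKM in JAK2 V617F and 5.30 FPKM in control cells, where Pf4 and Ppbp were listed at 0. Pericyte and smooth muscle markers (6 of 6) summed to 268 FPKM in JAK2 V617F and 151 FPKM in control cells. The part of these cells in the collagen values was not tested.

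Collagen transcripts together were less abundant in the JAK2 V617F library, and most of that gap was collagen I. The 43 genes summed to 3222 FPKM in JAK2 V617F and 5668 FPKM in control cells, a ratio of 0.568. They made up 0.394% of all FPKM in JAK2 V617F and 0.613% in control cells. Without Col1a1 and Col1a2 the sums were 808 FPKM in JAK2 V617F and 930 FPKM in control cells, a ratio of 0.869. These 41 genes made up a near equal share of all FPKM, 0.0989% in JAK2 V617F and 0.101% in control cells. In bulk samples, fewer cells of a type and less RNA per cell cannot be told apart.

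By gene, 33 of the 43 members reached 1 FPKM in at least 1 library, the level taken as measured. Of these, 28 reached it in both libraries, 4 in the control library alone (Col14a1, Col4a6, Col6a4 and Col28a1) and 1 in the JAK2 V617F library alone (Col23a1). Differences were computed as log2((JAK2 V617F FPKM + 1)/(control FPKM + 1)), and a gene was counted at 2-fold or more on that scale, on which the added 1 shrinks differences of low genes. On this scale 3 collagen genes (9.09% of 33) were higher by 2-fold or more in JAK2 V617F cells, where 13.7% of all 15425 measured rows and 9.99% of 12499 measured protein-coding rows were. Lower by 2-fold or more were 7 collagen genes (21.2%), against 11.3% of all measured rows and 8.71% of protein-coding rows. The 7 include Col6a4, whose value in JAK2 V617F cells is an exact 0 that may be a failed estimate, and without it there were 6. The 4 members measured in the control library alone are all among the 7, and passing through 1 library makes such a difference likely. Col23a1, measured in the JAK2 V617F library alone, is likewise among the 3 higher genes. Of the 28 measured in both libraries, 2 were higher (7.14%) and 3 lower (10.7%). Among all 12387 rows measured in both, 6.14% were higher and 7.43% lower, and among 10890 protein-coding rows 5.66% were higher and 6.8% lower, so these counts lie near the background. Of the 33 measured members, 12 had a positive log2 ratio and 21 a negative ratio, with a median of -0.27. Of all measured rows 48.2% had a positive ratio and 51.8% a negative ratio, with a median of -0.03. A member measured in 1 library alone takes its sign from that library. For the 28 measured in both libraries, 11 ratios were positive and 17 negative, with a median of -0.20. Of the 10890 protein-coding rows measured in both, 45.3% were positive and 54.7% negative, with a median of -0.06. Counting the 10 unmeasured members too, 18 ratios were positive and 25 negative. Of the 15366 protein-coding rows above 0 in a library, 51.2% were positive and 48.8% negative.

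**Figure D2:**
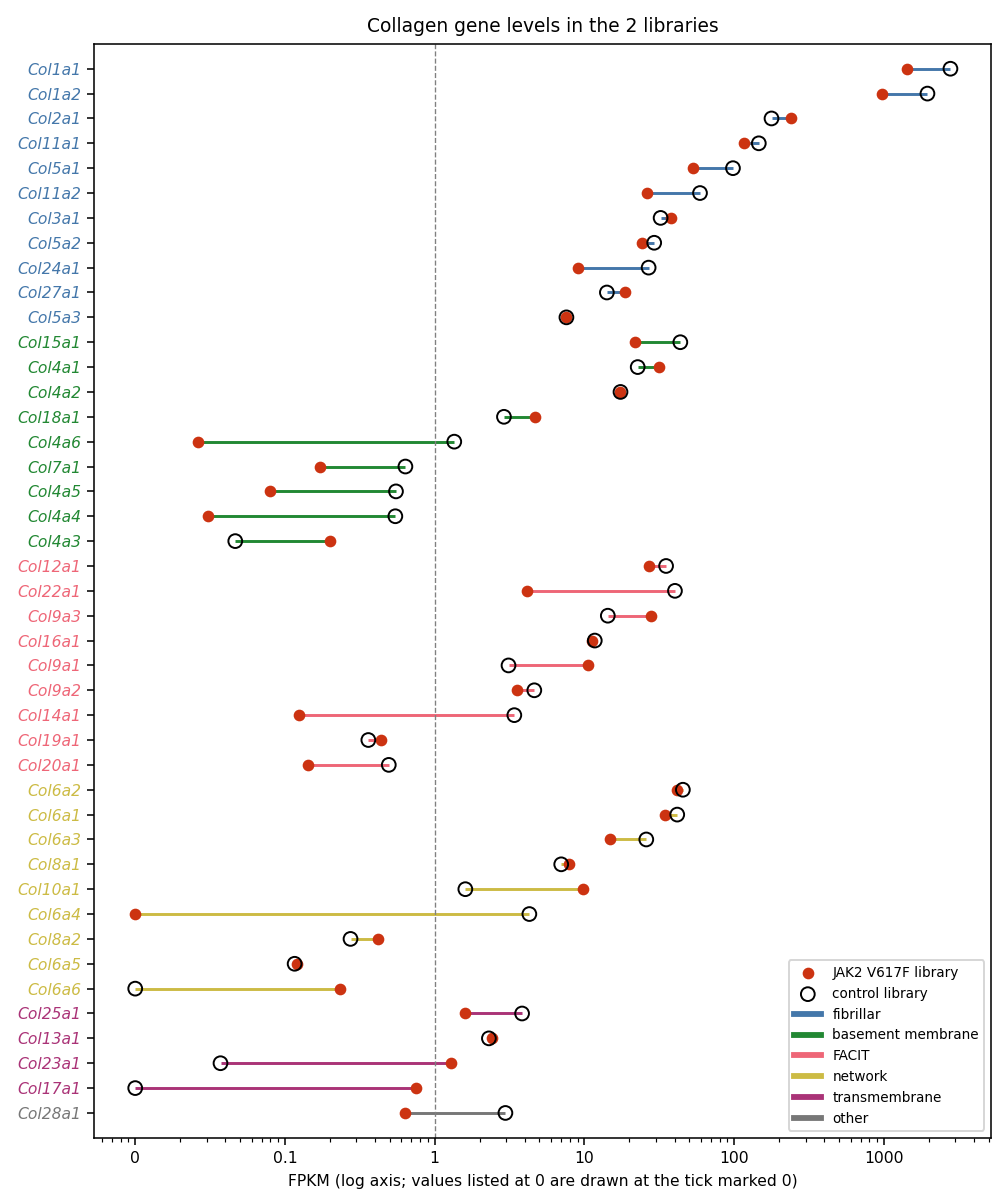
FPKM of each of the 43 collagen genes (log x axis) in the JAK2 V617F library (filled) and the control library (open), grouped by class and ordered by level. Col1a1 and Col1a2 stand far above the other genes in both libraries, and values listed at 0, as for Col6a4 in JAK2 V617F cells, are drawn at the tick marked 0.

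**Figure D3:**
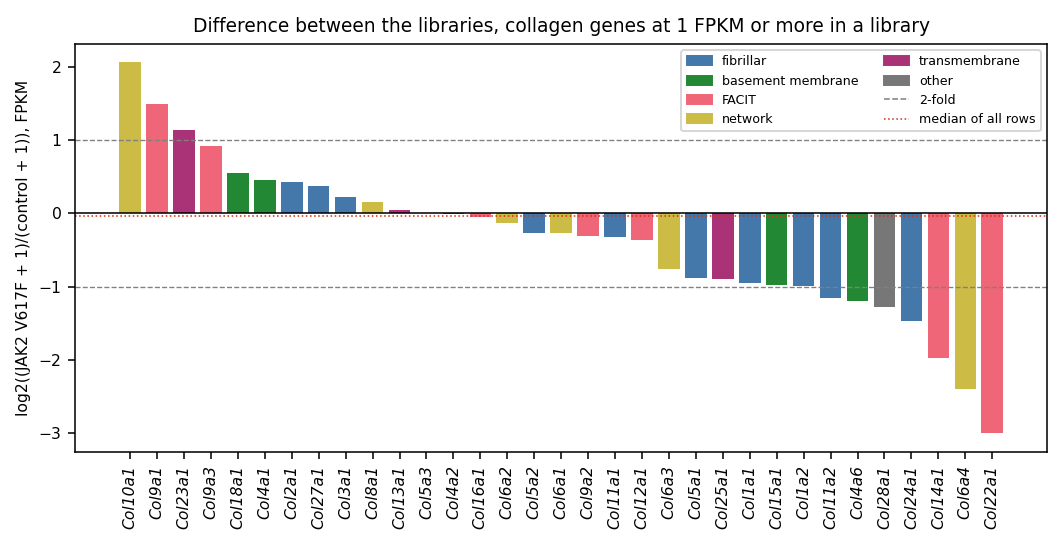
Log2 ratio (FPKM + 1) of JAK2 V617F to control for the 33 measured collagen genes, ordered from highest to lowest and coloured by class; dashed lines mark 2-fold and the dotted line the median of all measured rows. Col10a1, Col9a1 and Col23a1 lie above the upper line, 7 genes lie below the lower line, and Col1a2, Col15a1 and Col1a1 end just short of it.

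The 11 fibrillar genes carried the bulk of the family, with 2946 FPKM in JAK2 V617F and 5330 FPKM in control cells. Col1a1, the alpha 1 chain of collagen I (chr11:94936224-94953042, GRCm38), was at 1436 FPKM in JAK2 V617F and 2784 FPKM in control cells, a ratio of 0.516. Col1a2, the alpha 2 chain (chr6:4504814-4541543), was at 978 FPKM in JAK2 V617F and 1955 FPKM in control cells, a ratio of 0.50. Both were just inside the 2-fold line, with log2 ratios of -0.95 for Col1a1 and -1.0 for Col1a2. By rank among all rows, Col1a1 was 62nd in the JAK2 V617F library and 35th in the control library, and Col1a2 was 100th in the JAK2 V617F library and 48th in the control library. Together they held 74.9% of collagen FPKM in JAK2 V617F and 83.6% in control cells.

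The other fibrillar collagens of such fibrils differed among themselves. Col5a1, whose product helps to start fibrils, was at 52.8 FPKM in JAK2 V617F and 98.2 FPKM in control cells (ratio 0.538). Col5a2, a chain of the same collagen, was at 24.1 FPKM in JAK2 V617F and 29.2 FPKM in control cells (0.825). Col5a3 was at 7.59 FPKM in JAK2 V617F and 7.58 FPKM in control cells. Col3a1, the chain of collagen III of elastic and vascular tissue, was slightly higher, at 37.8 FPKM in JAK2 V617F and 32.3 FPKM in control cells (1.17). Col3a1 and Col5a2 are neighbours on chromosome 1, 24614 bases apart and tail to tail, and their ratios lay on opposite sides of 1.

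The fibrillar genes past 2-fold were Col24a1 and Col11a2. Col24a1, a minor fibrillar collagen (chr3:145292472-145552011), was at 9.07 FPKM in JAK2 V617F and 26.8 FPKM in control cells, 2.96-fold lower (log2 ratio -1.47). It is known as a marker of osteoblast differentiation in mouse. Col27a1, the other minor fibrillar gene and a cartilage collagen, lay the other way, at 18.7 FPKM in JAK2 V617F and 14.1 FPKM in control cells (1.32). Col11a2, a chain of the cartilage collagen XI (chr17:34039437-34066685), was at 26.0 FPKM in JAK2 V617F and 59.2 FPKM in control cells, 2.27-fold lower (log2 ratio -1.16, and -0.98 with both libraries scaled to the same sum). Its partner Col11a1 was at 117 FPKM in JAK2 V617F and 146 FPKM in control cells (0.801). Col2a1, the main cartilage collagen, was at 238 FPKM in JAK2 V617F and 178 FPKM in control cells (1.34). After collagen I it was the most abundant member in both libraries, with 7.4% of collagen FPKM in JAK2 V617F and 3.13% in control cells.

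Osteoblast markers were lower in the same library. On that list of 9, all measured, 8 log2 ratios were negative with a median of -0.94, and 4 genes passed 2-fold, all of them downward, where 51.8% of all measured rows were negative and 11.3% lower by 2-fold. Their sum was 1751 FPKM in JAK2 V617F and 3458 FPKM in control cells, and none was listed at 0. Those 4 were the matrix gene Dmp1 (JAK2 V617F 28.3, control 108 FPKM), osteocalcin gene Bglap (JAK2 V617F 171, control 519), bone-restricted gene Ifitm5 (JAK2 V617F 15.8, control 45.3) and the transcription factor Sp7 (JAK2 V617F 13.9, control 32.9). The part of osteoblast content in the collagen I values was not tested.

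**Figure D4:**
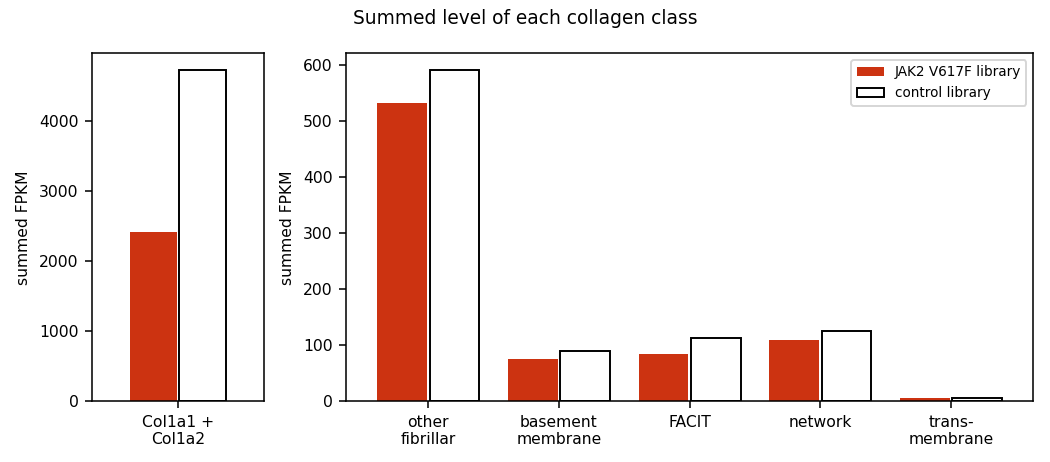
Summed FPKM of each collagen class in the JAK2 V617F library (filled bars) and the control library (open bars), with Col1a1 and Col1a2 apart on their own axis. The collagen I pair summed to 2414 FPKM in JAK2 V617F and 4738 FPKM in control cells, while the other 9 fibrillar genes summed to 532 FPKM in JAK2 V617F and 591 FPKM in control cells.

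The 9 FACIT genes summed to 85.2 FPKM in JAK2 V617F and 113 FPKM in control cells. They spanned a wide range, with a lowest log2 ratio of -3.00 and a highest of 1.49 among the 7 of 9 that were measured. Col22a1, known from tissue junctions such as that of muscle and tendon (chr15:71795795-72034227), was at 4.16 FPKM in JAK2 V617F and 40.2 FPKM in control cells. It was 9.67-fold lower, with about 225 fragments in JAK2 V617F and 1818 in control cells if its longest coding transcript is assumed, the widest gap among collagen genes that reached 5 FPKM in a library. Col14a1, a FACIT that regulates fibril growth in skin and tendon (chr15:55307750-55520803), was at 0.125 FPKM in JAK2 V617F and 3.40 FPKM in control cells, with about 5 fragments in JAK2 V617F and 112 in control cells. Col12a1, the closest relative of Col14a1 in domain make-up, was at 27.0 FPKM in JAK2 V617F and 35.1 FPKM in control cells (0.768). Col16a1 was at 11.3 FPKM in JAK2 V617F and 11.7 FPKM in control cells. Below 1 FPKM in both were Col19a1 (JAK2 V617F 0.441, control 0.361 FPKM) and Col20a1 (JAK2 V617F 0.142, control 0.494 FPKM).

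Markers of tendon and other fibroblasts, where Col14a1 and Col22a1 are known, were mixed. Of 7 markers, 4 were measured, and Tnmd was listed at 0 in both libraries. Of the 4, 1 was higher by 2-fold and 2 lower. Among all measured rows 13.7% were higher and 11.3% lower, and 4 genes are too few to set against these shares. Scx, a tendon transcription factor, was at 0.50 FPKM in JAK2 V617F and 2.03 FPKM in control cells. Since Scx was measured in the control library alone, such a difference was likely. Pi16, a fibroblast gene, was at 3.25 FPKM in JAK2 V617F and 15.3 FPKM in control cells. Dpt, another fibroblast gene, was at 27.4 FPKM in JAK2 V617F and 11.5 FPKM in control cells, and Cd34 at 23.8 FPKM in JAK2 V617F and 15.9 FPKM in control cells. Summed, the list was at 56.5 FPKM in JAK2 V617F and 46.2 FPKM in control cells. Its part in the FACIT values was not tested.

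Collagen IX is the FACIT of cartilage and is assembled from chains of Col9a1, Col9a2 and Col9a3. Its summed level was 42.1 FPKM in JAK2 V617F and 22.1 FPKM in control cells, but its genes did not share the difference. Col9a1 was at 10.6 FPKM in JAK2 V617F and 3.11 FPKM in control cells, 3.40-fold higher (log2 ratio 1.49). Col9a3 was at 28.0 FPKM in JAK2 V617F and 14.3 FPKM in control cells, 1.95-fold higher (0.92, and past 2-fold when the libraries were rescaled). Col9a2 was slightly lower, at 3.56 FPKM in JAK2 V617F and 4.63 FPKM in control cells (0.768). All 3 genes have the same longest GGN run, 113 codons. The annotated Col9a3 locus also overlaps Tcfl5, which was at 0.860 FPKM in JAK2 V617F and 0.132 FPKM in control cells.

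The network-forming collagens summed to 109 FPKM in JAK2 V617F and 126 FPKM in control cells, and Col10a1 was the sole one past 2-fold upward. Its row (chr10:34288288-34418552) covers Nt5dc1 as well, since Col10a1 lies inside that gene on the opposite strand. Col10a1 was at 9.85 FPKM in JAK2 V617F and 1.60 FPKM in control cells. With a sole annotated transcript of 3130 bases, this corresponds to about 182 fragments in JAK2 V617F and 25 in control cells, a ratio of 6.15 with an exact (Clopper-Pearson) 95% interval of 4.01 to 9.70. The interval covers counting error only and treats fragments as independent. Amplified reads without molecular identifiers are not independent molecules, so it is too narrow even for that error. Nt5dc1 itself lay the other way, at 11.8 FPKM in JAK2 V617F and 16.8 FPKM in control cells. With strand use unknown, reads where these genes overlap cannot be assigned, and the Col10a1 interval does not cover that. Col8a1, of the same hexagonal kind and with the same longest GGN run as Col10a1, 61 codons, was at 7.93 FPKM in JAK2 V617F and 7.0 FPKM in control cells. Its partner Col8a2 was below 1 FPKM, at 0.421 FPKM in JAK2 V617F and 0.274 FPKM in control cells.

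Chondrocyte markers were higher in the same library as Col10a1 and Col9a1. Of 10 markers, 8 had a row of their own and 7 were measured, with a median log2 ratio of 1.61 over the 7. Of these, 6 passed 2-fold upward, where 13.7% of all measured rows did. Among them Matn3 was measured in the JAK2 V617F library alone, which makes such a difference likely. The others past 2-fold were measured in both libraries, where 6.14% of all rows were higher by 2-fold. Matn1 was listed at 0 in both libraries. The 4 farthest were the lubricin gene Prg4, which the synovium also makes (JAK2 V617F 1234, control 20.1 FPKM), and the cartilage matrix genes Matn3 (JAK2 V617F 8.14, control 0.333), Comp (JAK2 V617F 39.5, control 9.19) and Chad (JAK2 V617F 313, control 102). Summed, the list was at 1639 FPKM in JAK2 V617F and 160 FPKM in control cells, with Prg4 most of the JAK2 V617F sum. Of the cartilage collagens, Col2a1, Col9a1, Col9a3 and Col10a1 were higher too, whereas Col11a1, Col11a2 and Col9a2 were lower. For Col9a2 the interval from counting alone includes equal levels (0.532 to 1.10). For Col11a1 (0.772 to 0.832) and Col11a2 (0.404 to 0.478) it lies below 1. These genes have several annotated transcripts, so the intervals are rough. The part of cartilage cells in all these values was not tested.

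Collagen VI, the beaded filament around cells, was lower in sum, at 90.9 FPKM in JAK2 V617F and 117 FPKM in control cells. Col6a1 was at 34.4 FPKM in JAK2 V617F and 41.7 FPKM in control cells (0.824). Col6a2 was at 41.3 FPKM in JAK2 V617F and 45.5 FPKM in control cells (0.908). Col6a3, the long chain that joins them, was at 14.9 FPKM in JAK2 V617F and 25.9 FPKM in control cells (0.577). The alternatives to that chain, Col6a4, Col6a5 and Col6a6, lie side by side on chromosome 9. Col6a4 was listed at 0 in JAK2 V617F and at 4.29 FPKM in control cells, about 162 fragments. Its neighbour Col6a6 was the reverse, at 0.235 FPKM in the JAK2 V617F library and listed at 0 in the control library. Col6a5 was at 0.12 FPKM in JAK2 V617F and 0.116 FPKM in control cells. No fold is given against these zeros, and the log2 ratio of -2.40 drawn for Col6a4 rests on the added 1 FPKM.

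Of the 6 collagen IV chains, 3 were measured, and 1 of these, Col4a6, was lower by 2-fold. Col4a1 was at 31.4 FPKM in JAK2 V617F and 22.7 FPKM in control cells (1.38). Col4a2, which is transcribed head to head with Col4a1 on chromosome 8 from starts 21 bases apart, was at 17.3 FPKM in JAK2 V617F and 17.4 FPKM in control cells (0.993). Their annotated starts overlap by 22 bases, and with strand use unknown reads there cannot be assigned. Col4a6 was at 0.0263 FPKM in JAK2 V617F and 1.35 FPKM in control cells. That is about 1 fragment in JAK2 V617F and 46 in control cells on its longest coding transcript (ratio 0.0195, counting interval 0.000450 to 0.106). Since Col4a6 was measured in the control library alone, such a ratio was likely and the interval is no test of a difference.

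The other collagen IV chains were below 1 FPKM in both libraries. Col4a5, head to head with Col4a6 on the X chromosome from a start 1309 bases away, was at 0.0800 FPKM in JAK2 V617F and 0.551 FPKM in control cells, from about 3 fragments in JAK2 V617F and 18 in control cells (ratio 0.145, counting interval 0.0263 to 0.477). The chains of the mature kidney and lung form, Col4a3 and Col4a4, start 72 bases apart on chromosome 1, and their ratios lay on opposite sides of 1. Col4a3 was at 0.20 FPKM in JAK2 V617F and 0.0466 FPKM in control cells, from about 11 fragments in JAK2 V617F and 2 in control cells (4.30, interval 1.0 to 42.6). Col4a4 was at 0.0304 FPKM in JAK2 V617F and 0.546 FPKM in control cells, from about 2 fragments in JAK2 V617F and 28 in control cells (0.0558, interval 0.00687 to 0.236). For these genes, which have several annotated transcripts, fragments were estimated on the longest coding transcript and the intervals are rough.

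The basement membrane zone also holds the multiplexins and the anchoring fibril. Col15a1 was at 21.7 FPKM in JAK2 V617F and 43.7 FPKM in control cells (0.496, log2 ratio -0.98). Col18a1, the source of endostatin, was at 4.71 FPKM in JAK2 V617F and 2.90 FPKM in control cells (1.62). Its locus overlaps Slc19a1, at 53.2 FPKM in JAK2 V617F and 87.6 FPKM in control cells. Col7a1, the anchoring fibril of skin, was at 0.172 FPKM in JAK2 V617F and 0.638 FPKM in control cells. The class as a whole summed to 75.6 FPKM in JAK2 V617F and 89.9 FPKM in control cells.

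Transmembrane collagens were the rarest class, with a sum of 6.04 FPKM in JAK2 V617F and 6.17 FPKM in control cells. Col13a1, found at adhesion sites, was at 2.41 FPKM in JAK2 V617F and 2.30 FPKM in control cells. Col25a1, best known from neurons, was at 1.60 FPKM in JAK2 V617F and 3.83 FPKM in control cells (0.417, log2 ratio -0.90). Col23a1 was at 1.28 FPKM in JAK2 V617F and 0.0371 FPKM in control cells, about 44 fragments in JAK2 V617F and 1 in control cells (ratio 34.5, counting interval 6.26 to 1485). It was measured in the JAK2 V617F library alone, which makes such a ratio likely, so the interval is no test of a difference. Col23a1 has 2 annotated transcripts, and fragments on the longest coding one make the interval rough. Col17a1, the hemidesmosome collagen of epithelia, was at 0.753 FPKM in the JAK2 V617F library and was listed at 0 in the control library. Col28a1, placed in no class and known from peripheral nerve, was at 0.634 FPKM in JAK2 V617F and 2.97 FPKM in control cells, 4.68-fold lower, from about 16 fragments in JAK2 V617F and 63 in control cells.

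Ratios between chains within a library do not depend on how the libraries are scaled, and they were close between libraries for some pairs and not for others. The ratio of Col1a1 to Col1a2, which join in collagen I, was 1.47 in the JAK2 V617F library and 1.42 in the control library. Col1a1 to Col5a1 was 27.2 in the JAK2 V617F library and 28.3 in the control library, and Col6a1 to Col6a2 was 0.832 in the JAK2 V617F library and 0.917 in the control library. The JAK2 V617F ratio was 1.03 times the control ratio for the first pair, 0.959 times for the second and 0.908 times for the third. Other chains of the same fibrils and filaments were less close. Col1a1 to Col3a1 was 38 in the JAK2 V617F library and 86.2 in the control library, 0.440 times. Col5a1 to Col5a2 was 2.19 in the JAK2 V617F library and 3.36 in the control library (0.652 times), and Col6a3 to Col6a1 was 0.435 in the JAK2 V617F library and 0.621 in the control library (0.70 times). Among cartilage collagens, Col9a1 to Col9a2 was 2.98 in the JAK2 V617F library and 0.673 in the control library, and Col9a3 to Col9a2 was 7.87 in the JAK2 V617F library and 3.10 in the control library. Col11a1 to Col11a2 was 4.50 in the JAK2 V617F library and 2.47 in the control library. Col2a1 to Col11a1 was 2.04 in the JAK2 V617F library and 1.22 in the control library, and Col2a1 to Col1a1, cartilage against bone collagen, was 0.166 in the JAK2 V617F library and 0.0638 in the control library.

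**Figure D5:**
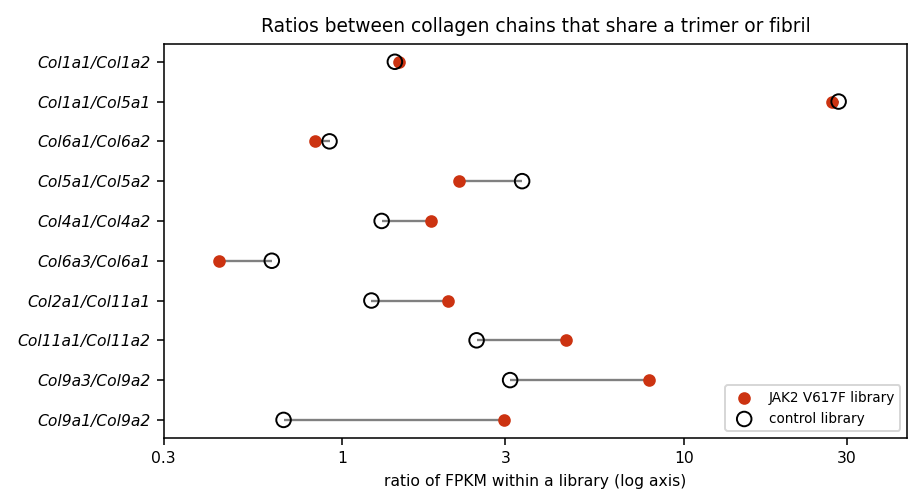
Ratio of FPKM between collagen chains that share a trimer or fibril, within the JAK2 V617F library (filled) and within the control library (open), on a log axis. The collagen I pair lies at 1.47 in JAK2 V617F and 1.42 in control cells, while the collagen IX and XI pairs lie farther apart.

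Genes that fold, cut, crosslink and break down collagen were read against all measured rows, of which 51.8% had a negative log2 ratio, 13.7% were higher by 2-fold and 11.3% lower. Of 18 measured folding and modification genes, 13 lay below 0 with a median of -0.32, and past 2-fold were Plod1 upward and Tmem38b and P4ha2 downward. Plod1, a lysyl hydroxylase, was higher, at 20.0 FPKM in JAK2 V617F and 7.59 FPKM in control cells. P4ha2, a prolyl hydroxylase subunit, was lower, at 9.76 FPKM in JAK2 V617F and 22.5 FPKM in control cells. P4ha3 was at 0.280 FPKM in JAK2 V617F and 1.30 FPKM in control cells. Tmem38b, an ion channel of the endoplasmic reticulum, was at 3.88 FPKM in JAK2 V617F and 320 FPKM in control cells. Its annotated locus also holds a ribosomal RNA gene on the same strand, which has no row under its name in the table, so whose reads make up these values cannot be told apart.

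Of 10 measured processing and crosslinking genes, 7 lay below 0 with a median of -0.44, and Loxl3 and Adamts14 passed 2-fold downward. Loxl3, of the lysyl oxidase family, was at 6.53 FPKM in JAK2 V617F and 32.9 FPKM in control cells, and the procollagen peptidase Adamts14 at 1.49 FPKM in JAK2 V617F and 4.29 FPKM in control cells. Lox was at 26.4 FPKM in JAK2 V617F and 47.8 FPKM in control cells, and Loxl2 at 4.55 FPKM in JAK2 V617F and 8.89 FPKM in control cells. Of 7 turnover genes, 6 lay below 0 (median -0.71), and the collagenase Mmp13 and the gelatinase Mmp2 passed 2-fold downward and the neutrophil collagenase Mmp8 upward. Mmp13 was at 144 FPKM in JAK2 V617F and 378 FPKM in control cells, and the lysosomal protease Ctsk at 6.02 FPKM in JAK2 V617F and 10.6 FPKM in control cells. Mmp2 was at 25.1 FPKM in JAK2 V617F and 61.4 FPKM in control cells, and Mmp8 at 13.1 FPKM in JAK2 V617F and 2.59 FPKM in control cells.

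Collagen receptors had a median of -0.07 over 7 measured genes and 1 past 2-fold, downward. Of all measured rows 13.7% were higher by 2-fold and 11.3% lower, so 1 of 7 lies near the background. That gene was Lair1, an inhibitory receptor of leukocytes, at 3.49 FPKM in JAK2 V617F and 14.4 FPKM in control cells. Of the integrin chains, Itga1 was at 9.50 FPKM in JAK2 V617F and 6.45 FPKM in control cells, Itga11 at 6.02 FPKM in JAK2 V617F and 8.67 FPKM in control cells, and Itga2 at 0.809 FPKM in JAK2 V617F and 1.29 FPKM in control cells. Among 8 transcription factors known to act on collagen genes (median -0.36), 1 passed 2-fold upward and 1 downward, also near those shares. Sox9 was higher, at 7.41 FPKM in JAK2 V617F and 3.11 FPKM in control cells, and Sp7 lower, as given above. Sox5 was at 10.9 FPKM in JAK2 V617F and 5.13 FPKM in control cells, and Creb3l1 at 21.4 FPKM in JAK2 V617F and 32.6 FPKM in control cells.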

How the data were processed

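RNA was measured in 2 libraries, each from sorted cells of 3 pooled animals. Per the labels' protocols, 2 to 3 ng of RNA was amplified with a NuGEN Ovation kit and sonicated to about 300 bp, and sequenced on a Genome Analyzer IIx. The tools named in the submitters' processing notes are Cufflinks, Bowtie2 2.0.6, TopHat2 2.0.7 and cutadapt 1.2.1, and the build is GRCm38, with annotation, strand use and between-library scaling not given in the sources used here. Per gene and library, 1 FPKM value was deposited by the authors. Locus starts, 0-based as deposited, are printed 1-based.

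From these values, log2 ratios with a pseudocount of 1 FPKM were computed over all rows (Python 3.11.15, pandas 2.3.3, numpy 2.4.6), and rows at 1 FPKM or more in a library were kept. With 1 library per group no p-value between genotypes exists. Of 35798 rows, 401 name several genes and were left out of lists. Protein-coding rows were matched to RefSeq symbols and synonyms (20083 rows). Depth came from 3874 genes with 1 transcript in GENCODE vM21, of at least 500 bases, as the value of 1 fragment and the length offset (31 offsets up to 300 bases) that best put low values on whole numbers. It was 0.159 FPKM at 1 kb in the JAK2 V617F library and 0.192 in the control library. Among low values (0.5 to 3.5 fragments), 81.9% for JAK2 V617F and 82.8% for control cells came within 0.2 of whole numbers, and an even spread would give 40%. Value and offset were chosen on these same genes, so this is no independent check. Counting intervals are exact and at 95%. The calculations were tested on simulated data.

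Members, classes and lists were chosen with earlier results of these data known. All members are reported, with the 4 farthest genes of the osteoblast, chondrocyte, tendon and collagen-handling lists. The other marker lists are given by counts or sums.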

Additional observations from a re-analysis of the deposited data

How the results depend on the processing

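The counts of 3 higher and 7 lower collagen genes stayed within 1.5 times under a pseudocount of 0.1 FPKM, no filter and both rescalings. They were 3 higher and 9 lower with a pseudocount of 0.1 FPKM, and 3 and 7 with no filter. After scaling both libraries to the same sum they were 4 and 6, and after scaling on the median ratio 4 and 7. With a pseudocount of 5 FPKM they were 1 and 3, and among rows at 5 FPKM or more 2 genes were higher and 3 lower. Both alternatives leave out or compress low genes. The shares over all rows were not computed under any of these alternatives. Without Col6a4, an alternative chosen after seeing the data, 6 genes were lower. The median log2 ratio of -0.27 was -0.10 with both libraries scaled to the same sum, which moves the ratios of abundant genes up by 0.18 and those of low genes by less, because of the added 1 FPKM. Scaling on the median ratio moves them by at most 0.10. Both rescalings apply to every row, so the median of -0.03 over all measured rows moves up as well. Its value after rescaling was not computed. After scaling to the same sum, the ratio of summed FPKM was 0.643 for the family, 0.625 for fibrillar, 0.952 for basement membrane, 0.850 for FACIT, 0.977 for network and 1.11 for transmembrane genes. Without Col1a1 and Col1a2 it was 0.869 for the family and 0.899 for fibrillar genes, on the deposited scale. As a share of all FPKM, these other fibrillar genes were at 0.0650% in JAK2 V617F and 0.0639% in control cells. By gene, Col9a3 passed 2-fold under both rescalings, Col15a1 and Col25a1 passed it with a pseudocount of 0.1, and Col11a2 lost it at the same sum. With a pseudocount of 5, 6 calls were lost: Col14a1, Col23a1, Col28a1, Col4a6, Col6a4 and Col9a1. Col16a1 and Col4a2, close to 0, changed sign under both rescalings, and Col6a2 at the same sum. Leaving out a library was impossible with 1 per group. For genes under about 3 fragments in a library, depth limits what can be said.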
